A study of Mus musculus with 6 samples.

Results

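Pml, Sp100, Sp110, Sp140 and Daxx encode proteins of the PML nuclear body and of the SP100 family. They were taken by symbol from the deposited gene table, where each has 1 of the 59485 rows, and all 5 were among the 25802 genes that passed the filter on low values. The study sequenced poly-A RNA of mouse sciatic nerves at postnatal day 4, with 3 libraries labelled control (genotype wild-type) and 3 labelled mutant (genotype Ht-PA-Cre; Adar1fl/fl;R26R). In the Ht-PA-Cre transgene the human tissue plasminogen promoter drives Cre in neural crest cells, Adar1fl/fl are floxed alleles of the gene of the RNA editing enzyme ADAR1, and R26R is the YFP tracer of the recombined cells. The methods describe wild-type animals of these crosses as Adar1fl/fl;R26R or Adar1fl/+;R26R without Cre. The labels of the controls say only wild-type, so which of these each control carried is not given, and elsewhere the study also counts heterozygous animals with Cre among its controls. Neural crest derivatives are only a portion of the cells of a nerve, so every value pools cell types, and fewer cells of a type cannot be told apart from less RNA per cell.

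PML nuclear bodies are small protein assemblies in the nucleus. PML, a member of the tripartite motif family, is modified with the ubiquitin-like protein SUMO and forms their shell, which holds client proteins through SUMO and SUMO-interacting motifs. SP100 is the other permanent resident, and its relatives SP110 and SP140 share its N-terminal domain and the DNA-binding SAND domain and read chromatin through a bromodomain. DAXX is a chaperone of histone H3.3 that works with ATRX, enters the bodies through SUMO and was named for its binding to the death receptor FAS. Transcription of PML and SP100 is known to respond to interferon, and the bodies restrict the genomes of DNA viruses. SP110 and SP140 are best known from leukocytes.

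RefSeq promoter windows of GRCm38.p6, from 250 bases before to 50 bases after an annotated start, were found for all 5 genes (9 windows). Windows are shown for the 3 SP100 family genes, which lie side by side on chromosome 1, and for Pml. They are written 5′ to 3′ on the strand of the gene. Sp110, Sp100 and Daxx have more than 1 annotated start, and 1 window is shown per gene. The capitals mark a run of 18 bases that this Sp110 window shares with the Sp100 window but for 1 base. The other Sp110 window, at the start at 85603891, does not hold the run. It was found by reading the sequences after the values were known.
Sp110, chr1:85598761-85599060, minus strand: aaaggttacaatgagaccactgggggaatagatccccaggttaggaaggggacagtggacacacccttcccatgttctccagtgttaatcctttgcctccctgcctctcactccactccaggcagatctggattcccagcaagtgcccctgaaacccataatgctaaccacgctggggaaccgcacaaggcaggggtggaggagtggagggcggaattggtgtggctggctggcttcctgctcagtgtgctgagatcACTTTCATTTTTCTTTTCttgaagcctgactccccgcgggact
Sp100, chr1:85649738-85650037, plus strand: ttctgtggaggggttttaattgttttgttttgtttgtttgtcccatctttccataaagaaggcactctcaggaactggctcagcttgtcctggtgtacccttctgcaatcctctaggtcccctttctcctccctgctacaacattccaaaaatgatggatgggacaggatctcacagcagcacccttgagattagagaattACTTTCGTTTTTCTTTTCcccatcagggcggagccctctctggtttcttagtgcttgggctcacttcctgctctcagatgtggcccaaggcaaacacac
Sp140, chr1:85600453-85600752, plus strand: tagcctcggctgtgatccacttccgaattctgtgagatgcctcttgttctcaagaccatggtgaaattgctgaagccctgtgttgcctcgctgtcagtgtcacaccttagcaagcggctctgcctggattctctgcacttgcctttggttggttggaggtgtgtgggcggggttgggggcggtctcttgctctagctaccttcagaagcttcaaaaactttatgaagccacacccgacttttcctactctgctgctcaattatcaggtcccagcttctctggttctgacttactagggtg
Pml, chr9:58249737-58250036, minus strand: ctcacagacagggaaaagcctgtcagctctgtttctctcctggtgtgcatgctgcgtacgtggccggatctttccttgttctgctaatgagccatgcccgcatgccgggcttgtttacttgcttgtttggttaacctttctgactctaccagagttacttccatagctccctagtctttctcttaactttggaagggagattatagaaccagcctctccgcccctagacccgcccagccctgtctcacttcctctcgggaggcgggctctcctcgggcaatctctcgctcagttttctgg

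In the Sp110 window the run was ACTTTCATTTTTCTTTTC, from base 8 to base 25 counted from the start at 85598810 (bases before a start are counted down from -1). In the Sp100 window it was ACTTTCGTTTTTCTTTTC, from base -49 to base -32 of the start at 85649988. The difference is A7G, with the base of Sp110 first and the position counted from 1 at the 5′ end of the run. Searched on both strands with any base at that position (ACTTTCNTTTTTCTTTTC), the run was found in 4 of 32851 windows (0.0122%), which belong to Sp110, Sp100 and the predicted pseudogene Gm7609. Sp100 has 2 overlapping windows that hold the same copy of the run. The spacing GAAANNNGAAA, which the run holds on the other strand, was in 3 of the 9 windows of the 5 genes (1 of Sp110 and both of Sp100) and in 2.75% of all windows, and was also chosen after the sequences were read. The core of the interferon-stimulated response element, GAAANNGAAA, was in 0 of the 9 windows and in 3.44% of all windows. The gamma-activated site TTCNNNGAA was likewise in 0 of the 9 windows and in 8.3% of all. These matches describe letters in windows of 300 bases and say nothing about binding.

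The targeted gene Adar (GSMG0024553, chromosome 3, 89715022 to 89753454) was at 1602, 2066 and 1133 normalized reads in the control-labelled libraries and at 11768, 9311 and 9773 in the mutant-labelled libraries, given here and throughout in the order of replicates 1, 2 and 3. Its log2 fold change of 2.72 (standard error 0.20, limma adjusted p = 4.1e-05) is opposite to the deletion that the genotype label names. With 1 value for the whole gene, its deleted segment cannot be told apart from the rest. The groups keep the names control-labelled and mutant-labelled for this reason, and directions follow the labels. The libraries held between 50938349 and 78250094 reads on genes, which were counted by the authors on mm10 and divided by a size factor per library. The threshold was a limma p of at most 0.05 before adjustment together with at least a 2-fold change on log2(value + 1), a scale that makes the change of low genes look smaller. P-values were adjusted by the Benjamini-Hochberg method across the tested genes, and errors are SDs over 3 libraries unless named as standard errors (SE).

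All 5 genes were higher in the mutant-labelled libraries, where 13.9% of the tested genes passed the threshold in that direction and 10.4% in the other. For each of them every mutant-labelled value lay above every control-labelled value, a separation that 25.9% of the tested genes showed. The lowest of the 5 log2 fold changes, that of Daxx, was reached by 8.77% of the tested genes. The lowest of the 3 SP100 family genes was reached by 1.53%. The median over the 5 genes was 4.63 on the log2 scale, and the median over all tested genes was 0.03.

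Pml (GSMG0040838, chromosome 9, minus strand, 58217179 to 58249788) encodes the scaffold of the bodies. It had 268.7, 253.2 and 152.1 normalized reads in the control-labelled libraries and 1517, 1060 and 1289 in the mutant-labelled ones. The groups did not overlap, and the lowest mutant-labelled value was 3.95 times the highest control-labelled one. The means were 224.7 ± 63.4 and 1289 ± 228.5, with a log2 fold change of 2.54 (SE 0.25, limma adjusted p = 0.000141).

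Daxx (GSMG0016528, chromosome 17, plus strand, 33909445 to 33915589) encodes the H3.3 chaperone of the bodies. Its values were 2462, 2904 and 2599 in the control-labelled libraries and 14926, 10049 and 11916 in the mutant-labelled ones. The control-labelled libraries lay close together (coefficient of variation 8.52%), and the lowest mutant-labelled value was 3.46 times the highest of them. The mean went from 2655 ± 226 to 12297 ± 2461, with a log2 fold change of 2.20 (SE 0.15, limma adjusted p = 2.3e-05).

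Sp100 (GSMG0000490, chromosome 1, plus strand, 85649988 to 85709995) encodes the family's founding member. It had 246.5, 497 and 81.1 normalized reads in the control-labelled libraries and 6235, 5253 and 4737 in the mutant-labelled ones. The control-labelled values spread 6.13-fold, the widest range of the 5 genes, yet the lowest mutant-labelled value was 9.53 times the highest of them. The means were 274.9 ± 209.4 and 5408 ± 761, and the log2 fold change was 4.63 (SE 0.54, limma adjusted p = 0.000362). This size rested on which control-labelled library was used. It was 5.24 without control replicate 2 and 3.94 without control replicate 3, and passed the threshold both times.

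Sp110 (GSMG0001850, chromosome 1, minus strand, 85576899 to 85603891) had the largest log2 fold change of the 5 genes with all libraries. Without control replicate 1 that of Sp140 was larger (5.13 against 4.90). Sp110 had 64.4, 141.7 and 57.0 normalized reads in the control-labelled libraries and 3166, 2419 and 2592 in the mutant-labelled ones. The control-labelled values rest on 45 to 150 counted reads. The lowest mutant-labelled value was 17.1 times the highest control-labelled one, the widest gap of the 5. The mean rose from 87.7 ± 46.9 to 2726 ± 391, and the log2 fold change was 5.05 (SE 0.32, limma adjusted p = 1.88e-05).

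Sp140 (GSMG0000489, chromosome 1, plus strand, 85600703 to 85645037) had 179.9, 147.4 and 87.4 normalized reads in the control-labelled libraries and 4800, 3012 and 4477 in the mutant-labelled ones. Again no values overlapped, with a gap of 16.7-fold between the nearest libraries. The mean rose from 138.2 ± 46.9 to 4096 ± 953, and the log2 fold change was 4.91 (SE 0.28, limma adjusted p = 1.2e-05). The plot of the 5 genes by library shows these values.

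**Figure D1:**
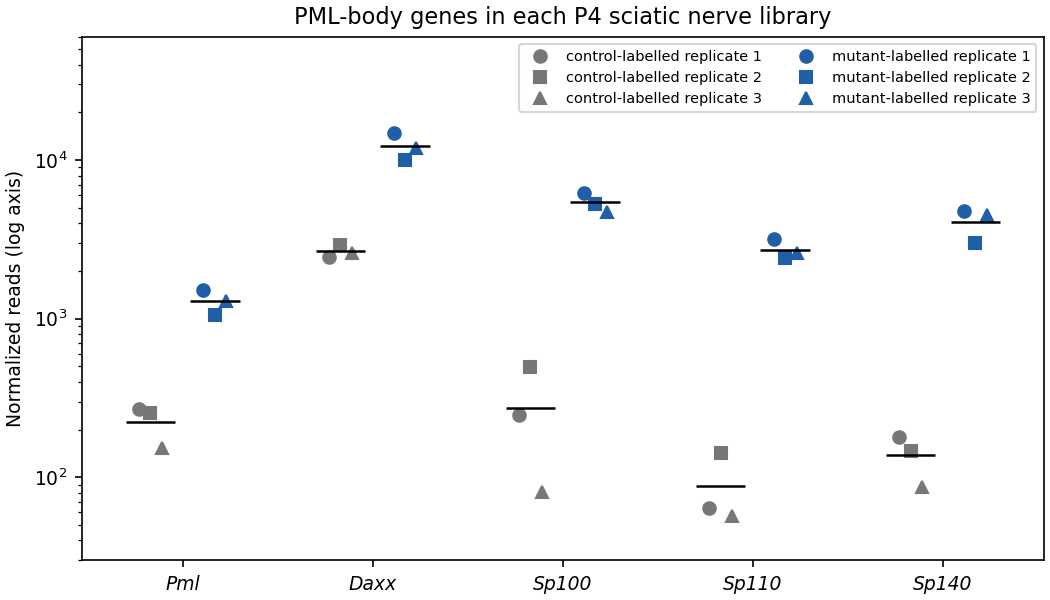
Normalized reads of Pml, Daxx, Sp100, Sp110 and Sp140 in each library on a log10 axis, with points for libraries and lines for group means. Every mutant-labelled point lies above every control-labelled point of the same gene, by 3.46-fold for Daxx and 17.1-fold for Sp110 at the nearest.

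Levels of different genes were compared only per length, as normalized reads per kilobase of merged GENCODE M21 exons. The authors counted constitutive regions, so these densities are approximate. Among the control-labelled libraries Daxx was far above the others, at 842.5 ± 71.8 per kilobase. Sp140 (41.5 ± 14.1), Pml (40.3 ± 11.4) and Sp100 (36.4 ± 27.7) followed and did not differ beyond their SDs. Sp110 was lowest with 12.9 ± 6.92, within the SD of Sp100. Daxx was also highest among the mutant-labelled libraries, at 3903 ± 781. There the order of the rest was Sp140 (1231 ± 286), Sp100 (716 ± 101), Sp110 (402 ± 57.6) and Pml (231 ± 41.0), and no neighbours in that order overlapped within 1 SD. Pml was thus level with Sp140 and Sp100 in the control-labelled nerves and below all 3 SP100 family genes in the mutant-labelled ones.

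The libraries kept a similar order across the 5 genes. Mutant replicate 1 was the highest of its group for 5 of 5 genes and mutant replicate 2 the lowest for 4 of 5, Sp100 being the exception. Control replicate 3 was the lowest for 4 of 5 genes, Daxx being the exception. Control replicate 2 was the highest for Sp100, Sp110 and Daxx. The coefficient of variation ran from 8.52% for Daxx to 76.2% for Sp100 in the control-labelled group and from 14.1% for Sp100 to 23.3% for Sp140 in the mutant-labelled group.

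Whether the genes rose by different amounts was asked for 10 pairs, from the per-library difference of their log2(value + 1). For 6 pairs the differences of the groups did not overlap, and these were all the pairs of 1 SP100 family gene with Pml or with Daxx. Sp100, Sp110 and Sp140 rose more than Pml by 2.09 (SE 0.56), 2.51 (SE 0.35) and 2.37 (SE 0.11) on the log2 scale. They exceeded the rise of Daxx by 2.44 (SE 0.73), 2.86 (SE 0.35) and 2.72 (SE 0.33). Each of these 6 pairs had an exact two-sided permutation p of 0.1, the smallest that 3 against 3 libraries can give, and 0.167 after adjustment over the 10 pairs, so none could pass 0.05. Within the SP100 family the differences overlapped. Sp100 minus Sp110 was -0.42 (SE 0.46), Sp100 minus Sp140 was -0.28 (SE 0.59) and Sp110 minus Sp140 was 0.14 (SE 0.43). Pml minus Daxx was 0.35 (SE 0.26) and also overlapped (exact permutation p = 0.4).

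The 3 SP100 family genes form a cluster. Sp140 ends 4950 bases before Sp100 on the same strand, and the row of Sp110 overlaps that of Sp140 on the opposite strand over 3189 bases (85600703 to 85603891). In GENCODE M21, the Sp110 gene model starts at 85598817, before the overlap, and shares 0 exon bases with Sp140. RefSeq also has an Sp110 start at 85603891, the far end of the overlap. The library kit yields oriented cDNA, but whether the counting used strand is not given in the sources used here, so reads in the overlap cannot be assigned to 1 of these genes with certainty. The mouse genome also holds near-identical copies of this family, and reads may be split among them. LOC100041034, annotated as an Sp110 pseudogene on an unlocalized scaffold of chromosome 1, had 13.3, 21.7 and 15.2 normalized reads in the control-labelled libraries and 331.7, 242.2 and 217.6 in the mutant-labelled ones. Its log2 fold change was 3.90 (SE 0.37, limma adjusted p = 0.000125). Csprs, a component of the repeated unit Sp100-rs, was at 0 in every control-labelled library and at 17.5, 34.7 and 25.7 in the mutant-labelled ones. It was at least 7.82-fold higher, taking 3 reads per control-labelled library as the limit, which covers counting error only. LOC664787, another Sp110 pseudogene, had at most 1 read in a library and was not tested.

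Within 200 kb of the 5 genes the table has 72 other rows, of which 49 were tested, 12 passed as higher and 5 as lower. In either direction 24.2% of all tested genes passed. Of the 49 rows, 8 were tested only because their mutant-labelled mean reached 10, and these had to be higher there. Among the 41 rows whose means reached 10 in both groups 6 were higher and 5 lower. Around the SP100 family cluster 6 rows were tested and 4 were higher, but 3 of these 4 were tested only through the mutant-labelled libraries. These 3 have no symbol, and 1 of them (GSMG0000491, 85685478 to 85688676) lies within Sp100 on the same strand. A630001G21Rik, the named one, went from 34.9 ± 3.56 to 99.4 ± 20.6 (log2 fold change 1.47, SE 0.36, limma adjusted p = 0.0147). Next after it, Cab39 and Itm2c had log2 fold changes of 0.30 and 0.00 and did not pass. Around Pml 10 rows were tested and 2 were higher, both tested only through the mutant-labelled libraries. The named one was Ccdc33, which went from 2.43 ± 2.54 to 85.3 ± 9.86 (limma adjusted p = 0.00154).

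Daxx lies at the edge of the major histocompatibility complex, and 33 rows around it were tested, with 6 higher and 5 lower (5 and 5 among the rows whose means reached 10 in both groups). The class I genes H2-K1 (5.27, SE 0.33) and H2-K2 (5.25, SE 0.40) had larger log2 fold changes than Daxx, and so had Tapbp (2.95, SE 0.27), whose product tapasin loads peptides onto class I molecules. These differences from Daxx were not tested. Tapbp went from 1978 ± 889 to 14431 ± 2148 and starts less than 5 kb beyond Daxx. Angptl4, which encodes an inhibitor of lipoprotein lipase, rose by 2.51 (SE 0.15), and the noncoding Platr17, tested only through the mutant-labelled libraries, went from 2.53 ± 4.39 to 37.2 on average. Col11a2 (-1.68, SE 0.30), AA388235 (-1.52, SE 0.21), Cd320 (-1.29, SE 0.16) and Rgl2 (-1.05, SE 0.13) fell. Rows close to Daxx thus passed in both directions.

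**Figure D2:**
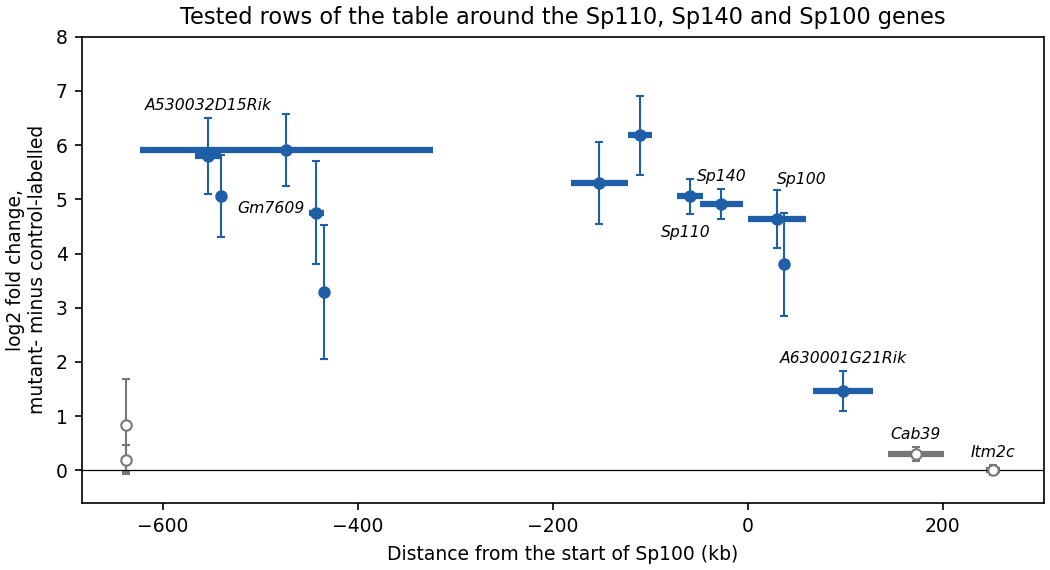
Log2 fold change (mutant minus control-labelled, points with SE) of each tested row from 600 kb before Sp110 to 200 kb after Sp100. The axis is the distance from the start of Sp100 in kb, with thick bars for the extent of the row. This stretch was chosen after its values were seen and is wider than that of the counts above. Filled points passed the threshold. Besides the SP100 family, 8 of 9 filled rows were tested only through the mutant-labelled libraries. Sp110, Sp140 and Sp100 stand at 4.63 to 5.05. Open points are Cab39 and Itm2c near 0 and the rows GSMG0069434 (0.83) and GSMG0059016 (0.20).

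The genes that act on the PML bodies were examined in lists of their own. SUMO modification of PML uses SUMO proteins, the enzymes that conjugate them, PIAS ligases and SENP proteases. Of the 16 genes of this pathway, 0 passed the threshold in limma in either direction, which 24.2% of all tested genes did, although 10 had groups that did not overlap (8 higher and 2 lower in the mutant-labelled libraries; 49.2% of the tested genes were separated). At a limma p of at most 0.05 with no limit on the fold the count was 9, where 45% of all tested genes had such a p, and edgeR and DESeq2 also called 0. Their median log2 fold change was 0.23, with a range from -0.43 to 0.79. Sumo2 and Sumo3 had values of -0.06 and 0.28. Of 9 genes for the turnover of PML, 0 passed in limma, edgeR or DESeq2 (median 0.16), beside 24.2% of all tested genes in limma, and 3 of the 9 had a limma p of at most 0.05. Rnf4, the ubiquitin ligase that recognizes SUMO chains on PML, was at 0.52 (SE 0.12). Ube3a, a ubiquitin ligase, had the highest value of this list, 0.90 (SE 0.24), and passed when all libraries were scaled to the same total (1.06) or when control replicate 1 (1.14) or mutant replicate 1 (1.02) was left out.

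Of 15 partners of the bodies 4 rose and 0 fell (median 0.73), beside 13.9% and 10.4% of all tested genes. Of the 4 calls 1, Morc3, was lost under 3 alternatives. With no limit on the fold, 11 of the 15 and 45% of all tested genes had a limma p of at most 0.05. Isg20, an exonuclease induced by interferon, had 119.9, 71.8 and 90.0 normalized reads in the control-labelled libraries and 5174, 4064 and 4761 in the mutant-labelled ones. Its log2 fold change of 5.64 (SE 0.20, limma adjusted p = 2.03e-06) was larger than that of each of the 5 body genes, a difference that was not tested. Zbtb16, which encodes the transcription factor PLZF, rose from 46.2 ± 16.0 to 166.5 ± 37.8 (1.87, SE 0.39). Blm, the helicase mutated in Bloom syndrome, rose from 637 ± 50.3 to 1593 ± 112 (1.32, SE 0.13). Morc3, a chromatin ATPase of the bodies that is named here after its value was seen, rose from 1766 ± 288 to 3648 ± 409.5, close to the 2-fold limit (1.05, SE 0.14). It fell under that limit, with 0.94, when libraries were scaled to the same 75th percentile, with 0.95 without control replicate 3 and with 0.996 without mutant replicate 1.

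Of 12 genes of histone H3.3 and its chaperones 0 passed in limma, edgeR or DESeq2 (median 0.15), beside 24.2% of all tested genes in limma. A limma p of at most 0.05 with no limit on the fold was reached by 4 of the 12 and by 45% of all tested genes. Atrx, the partner of DAXX in H3.3 deposition, went from 569 ± 134 to 690 ± 107 with overlapping values (0.29, SE 0.21, limma adjusted p = 0.318). Hira, of the other H3.3 deposition complex, was at -0.09 (SE 0.16). The H3.3 genes had log2 fold changes of -0.64 (H3f3a, SE 0.09) and 0.42 (H3f3b, SE 0.12). Of 6 genes for DAXX partners in death signaling, 5 were tested and 1 rose (median 0.02), a count near the 13.9% of all tested genes that rose. Fas, the death receptor itself, had 95.5, 96.4 and 115.3 normalized reads in the control-labelled libraries and 669.2, 831.7 and 824.9 in the mutant-labelled ones (2.91, SE 0.20, limma adjusted p = 2.41e-05). The gene of its ligand, Fasl, had at most 7.6 and was not tested. Map3k5, the kinase ASK1 downstream of DAXX, was at 0.02 (SE 0.23).

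The SAND domain occurs outside the SP100 family too, and of 4 other genes with it 0 rose and 1 fell (median -0.35), beside 13.9% and 10.4% of all tested genes, so the count does not stand apart from the background. Aire, best known from the thymus, was low throughout. It had 51.1, 41.6 and 30.4 normalized reads in the control-labelled libraries and 21.8, 4.82 and 7.91 in the mutant-labelled ones (-1.96, SE 0.66, limma adjusted p = 0.0489), a call that was lost when control replicate 1 was left out (-1.79) and when a mean of at least 50 was required. Deaf1 went from 4377 ± 228 to 2686 ± 225 and did not reach 2-fold (-0.71, SE 0.10).

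Of 7 transcription factors of the interferon response, 6 rose (median 2.94), beside 13.9% of all tested genes. Irf7, the factor that amplifies type I interferon, had 492, 1947 and 204 normalized reads in the control-labelled libraries and 99343, 70931 and 75697 in the mutant-labelled ones (7.12, SE 0.67). Stat2 (2.98, SE 0.26), which carries the signal of the type I interferon receptor, rose less than Sp100, Sp110 and Sp140 and more than Pml and Daxx, differences that were not tested. Irf9, Irf1 and Irf2 were higher by 1.32 to 2.94. Irf8 did not pass (0.82, SE 0.24), and passed only without control replicate 2 (1.02). Control replicate 2 was the highest of its group for 6 of these 7 factors, and mutant replicate 1 was the highest of its group for 6 of 7. Control replicate 2 was also the highest for Sp100, Sp110 and Daxx, and control replicate 1 for Pml and Sp140, as the plot of levels by library shows.

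**Figure D3:**
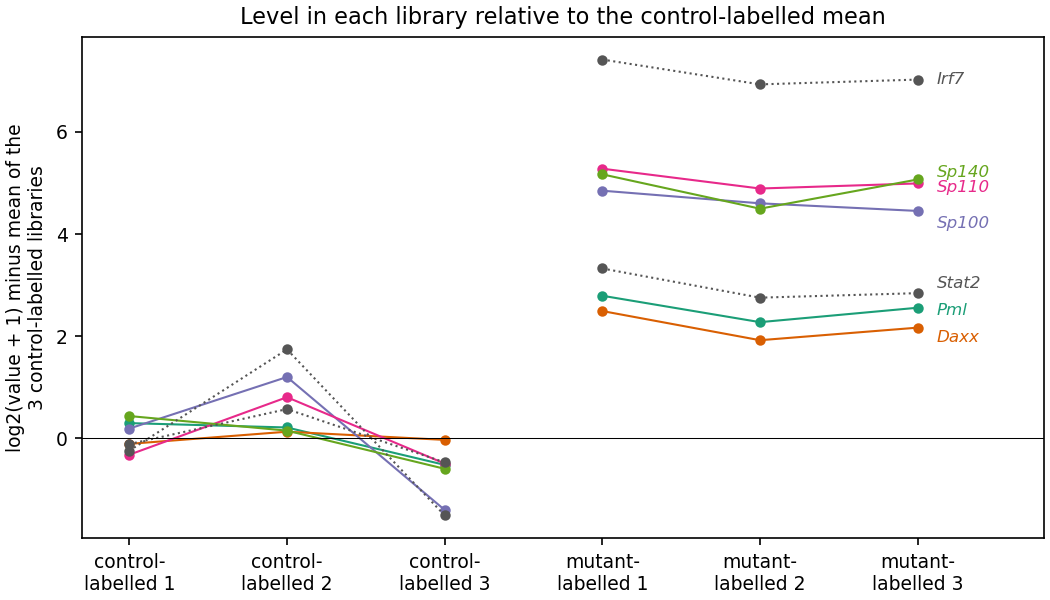
Log2(value + 1) minus the mean of the 3 control-labelled libraries for the 5 genes (colored) and Irf7 and Stat2 (gray, dotted) in each library, where lines only join the points of a gene. Irf7 and Stat2 peak in control replicate 2 among the control-labelled libraries, as Sp100, Sp110 and, by less, Daxx do; Pml and Sp140 are highest in control replicate 1.

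**Figure D4:**
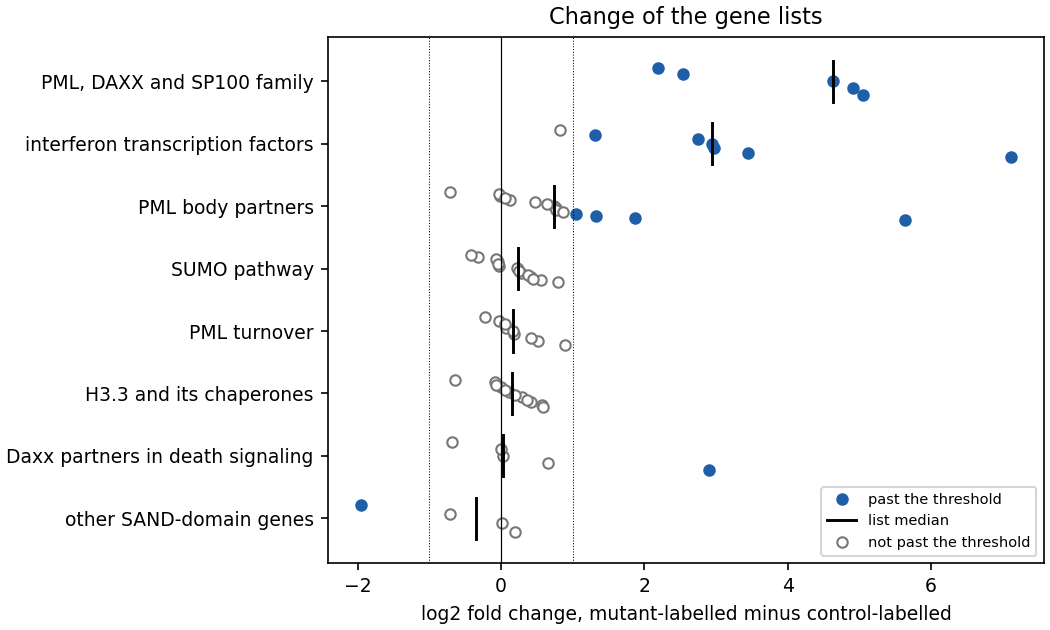
Log2 fold change (mutant minus control-labelled) of every tested gene of the body genes and the 7 lists, 1 point per gene with lines for list medians. The 5 body genes lie from 2.20 to 5.05 and the interferon transcription factors have a median of 2.94, while the medians of the SUMO pathway (0.23), PML turnover (0.16) and H3.3 (0.15) lists are near 0.

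Leukocytes can express Sp110 and Sp140, so markers of the cell types a nerve can hold are given beside these results. Their counts are to be read against the 13.9% of all tested genes that were higher and the 10.4% that were lower. Of 10 macrophage markers 2 were higher, 2 lower and 6 did not pass. Ptprc (317.9 ± 67.4 to 797 ± 170) and Aif1 (360 ± 78.3 to 737 ± 130) rose. Mrc1 (3602 ± 684 to 754 ± 196) and Csf1r (4621 ± 909 to 1977 ± 546) fell. These opposite changes offset each other in the summed level of the list. It ranged from 20144 to 25681 in the control-labelled libraries and from 21942 to 25204 in the mutant-labelled ones. Lymphocyte markers were low, with a summed level of 224.3 to 359.8 against 448.1 to 597.9, and 4 of 10 tested were higher. Of these 4, Nkg7 and Cd8a were tested only because their mutant-labelled mean reached 10, so their direction was fixed by the filter. That of Klrb1c (25.5 ± 14.9 to 82.35 ± 18.2) and Cd4 (105 ± 43.2 to 214 ± 62.1, with overlapping values) was not. Cd3d and Cd8a were at 0 in all control-labelled libraries and at most 9.89 and 20.4 in the mutant-labelled ones. Granulocyte markers summed to 29.3 to 173.6 against 152 to 553.5, with 1 of 4 tested higher in limma and edgeR, 2 by DESeq2, and Ly6g at 0 in all control-labelled libraries. Dendritic cell markers summed to 446 to 647 against 430 to 532.5, with 1 of 2 tested (Siglech, tested only through the control-labelled libraries) lower in limma and 0 by edgeR or DESeq2. The Schwann cell markers fell for 4 of 7 genes (summed level 75238 to 77561 against 23628 to 35146), and those of skeletal muscle rose for 4 of 5 (3659 to 20399 against 24019 to 185107). Of 5 endothelial markers 0 passed in limma, edgeR or DESeq2. With no limit on the fold, 2 of the 5 had a limma p of at most 0.05, beside 45% of all tested genes. Of 6 fibroblast and perineurial markers 2 fell. The part of these cell types in the values of the 5 genes was not tested.

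The genes most like each of the 5 were found by the root mean square difference between log2(value + 1) profiles, each centered on its own mean, over the 6 libraries. With both groups in the profile, this measure mainly matches the size of the change. For Pml these were Hpse (0.10 on the log2 scale), Csf1 (0.12), Parp14 (0.15), Znfx1 (0.15) and Dusp2 (0.15). For Daxx they were Rnf114, Adora2a, Mpeg1, Otud1 and the joint row of Trex1 and Atrip, at 0.10 to 0.13. The nearest profiles to Sp100 were those of Gm4070, Ifi203, Gbp9, Lgals3bp and Irgm2, at 0.22 to 0.31. Those nearest to Sp110 were H2-Q4 (0.14), Cmpk2 (0.17), H2-D1 (0.23), C4b (0.25) and H2-K1 (0.26). Sp140 was closest to AW112010 (0.22), C4b (0.22), Has1 (0.24), Rnd1 (0.27) and Tpsab1 (0.28). Among the 5 genes, Pml and Daxx (0.32) and Sp110 and Sp140 (0.44) were the closest pairs, and Sp110 and Daxx (1.47) the most distant.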

How the data were processed

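Sciatic nerve RNA of 6 libraries was analysed, with 3 libraries per genotype as given by the sample labels. According to the authors, reads were mapped to mm10 with STAR 2.4.0 and counted on constitutive regions of FAST DB genes. The deposited signal is the count of reads divided by a DESeq2 size factor per library. Division by what 1 read is worth in its library made 100% of the values whole (within 0.01 reads), and these reads served for edgeR and DESeq2. The authors describe nerves of 3 control and 3 mutant animals, read here as 1 animal per library.

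log2(value + 1) was fitted with limma (lmFit, eBayes with trend; mutant minus control) where a gene's mean reached 10 in at least 1 genotype, which left 25802 genes. The threshold was an unadjusted p at or under 0.05 and at least 2-fold, the limits of the study's methods. The genes and lists were chosen with earlier results of these data known. The genes named are the 5 genes, up to 3 largest rises and falls past the threshold in each list (defining genes where none passed), named neighbours past the threshold within 200 kb, annotated copies, Adar and the 5 nearest profiles. Other genes are named as borderline or neighbouring cases after their values were seen. Some genes that this rule names are not reported here. Promoter windows are RefSeq's. The script was tested on simulated data.

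Alternatives were pseudocounts of 0.1 and 10, no filter or a mean of at least 50, other scalings, eBayes without trend, adjusted p, edgeR, DESeq2, a replicate block, and leaving out each library. R 4.3.3 with limma 3.58.1, edgeR 4.0.16 and DESeq2 1.42.0 was used, and Python 3.11.15.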

Additional observations from a re-analysis of the deposited data

How the results depend on the processing

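All 5 genes passed the threshold as higher under each of 17 alternatives, 6 of which leave out 1 library, and the highest adjusted p was 0.00874, for Sp100 without trend in eBayes. The log2 fold change ranged from 2.28 to 2.71 for Pml, 3.94 to 5.24 for Sp100, 4.81 to 5.46 for Sp110, 4.62 to 5.13 for Sp140 and 2.05 to 2.36 for Daxx. With libraries left out, neighbouring rows past the threshold numbered 15 to 17 (17 with all libraries), list counts 0 to 1 for other SAND-domain genes (1), 0 to 1 for PML turnover (0), 3 to 4 for PML body partners (4) and 6 to 7 for interferon transcription factors (6), and separated pairs 6 to 7 (6). The SAND-domain count was 0 with a mean of at least 50, since Aire was then not tested, and with the same total the turnover count was 1 and that of the body partners 5, with Mdm2 (1.02) gained. Scaling to the same total moved the median of all tested genes from 0.03 to 0.20, and the same 75th percentile moved it to -0.09; list medians shifted alike. The labels do not say whether same-numbered samples are paired, and the main fit did not pair them. The correlations of same-numbered deviations were -0.06, -0.06 and 0.01, which show no pairing but cannot exclude it. With the replicate block 5 of 5 genes passed and 6149 genes were called in all, against 6251 without it. Control-labelled values of Sp100, Sp110, Sp140 and Pml rest on 45 to 526 reads, which limits their folds more than those of Daxx.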

Other observations

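The stretch before Sp110 was looked at after its values had been seen. In the 600 kb before Sp110 and the 200 kb after Sp100 the table has 33 rows besides the 3 SP100 family genes, of which 13 were tested and 9 were higher. Of the 13, 9 were tested only because their mutant-labelled mean reached 10. Of the 9 higher rows, 8 are among these. The filter fixed their direction, so the count cannot show whether there is an excess. Of the 4 rows whose means reached 10 in both groups 1 was higher, beside 13.9% of all tested genes. The row GSMG0000491, among the 8, lies within Sp100 itself. A530032D15Rik was at 0 in all 3 control-labelled libraries and at 61.1, 50.2 and 53.4 normalized reads in the mutant-labelled ones, at least 16.5-fold higher with 3 reads per library as the limit. Gm7609, the pseudogene whose promoter window held the run shared by Sp110 and Sp100, had 0, 11.3 and 1.27 in the control-labelled libraries and 73.5, 55.0 and 130.6 in the mutant-labelled ones (log2 fold change 4.75, SE 0.95, limma adjusted p = 0.00569). Its window matched that of Sp100 at 293 of 298 compared bases (98.3%). The row GSMG0043113, which has no symbol and lies on the pseudogene Gm7592 in GENCODE M21, had 0, 0 and 2.53 normalized reads in the control-labelled libraries and 124.4, 101.3 and 104.8 in the mutant-labelled ones. These rows are low and lie among copies of the family, so their reads may be shared with Sp100, Sp110 or Sp140, which was not tested.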
